A study of Mus musculus with 6 samples.

Results

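Semaphorins, plexins and neuropilins form a ligand and receptor system that steers growing nerve fibres and blood vessels. All genes of the deposited count table whose symbols are those of a semaphorin of classes 3 to 7, a plexin of classes A to D, or Nrp1 or Nrp2 were taken, which gave 31 of 22287 genes. They comprise 20 semaphorins, 9 plexins and 2 neuropilins. The levels were measured by RNA sequencing of the root-forming apical end of the mandibular first molar from C57BL/6 mice at postnatal day 7.5. All pups carried Arid1a alleles flanked by loxP sites (Arid1a fl/fl) and had been injected with tamoxifen at postnatal day 3.5, at 1.5 mg per 10 g. Controls had no Cre (3 libraries, replicates 2, 3 and 5), and mutants also carried Gli1-CreER (Gli1-CreER;Arid1a fl/fl; 3 libraries, replicates 3, 4 and 5). Gli1-CreER is active only in cells that express Gli1, a Hedgehog-responsive gene, while the RNA came from the whole dissected tissue. No group carried CreER with unfloxed Arid1a, so CreER and loss of Arid1a cannot be told apart. Whether a library is 1 animal or a pool is not stated, so the p-values rest on the spread between libraries alone, which may be technical.

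Semaphorins share an extracellular sema domain, by which they bind plexins. Class 3 members are secreted, those of classes 4, 5 and 6 span the membrane, and Sema7a is anchored by a lipid. Plexins are transmembrane receptors whose cytoplasmic part inactivates small GTPases of the Ras and Rap family, which loosens adhesion and can collapse a growth cone. Most class 3 semaphorins need a neuropilin as co-receptor, and neuropilins also bind VEGF. In developing teeth, Sema3a from the mesenchyme is known to hold back nerve fibres until the tissue is ready for innervation.

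Arid1a, the floxed gene, stood at 210, 202 and 204 CPM (counts per 1e6 counts of the TMM-scaled library) in control replicates 2, 3 and 5. It stood at 120, 134 and 130 CPM in mutant replicates 3, 4 and 5, so the groups did not overlap (log2 fold change -0.68, SE 0.07, adjusted p = 0.0129). Leaving out control replicate 2 gave an adjusted p of 0.0506 and leaving out control replicate 3 gave 0.0529, both above the threshold of 0.05. Libraries held 20453247 to 24255352 estimated counts. The 12 markers of odontoblasts and dental mesenchyme, Dspp and Col1a1 among them, were present at 48719 to 50169 summed CPM in controls and 42414 to 51971 in mutants. Of them 9 had positive fold changes and 0 were called by edgeR (6 at an unadjusted p under 0.05), while DESeq2 called 3 higher and limma-voom 0. Over all 17305 genes tested by edgeR, 52.0% had positive fold changes, 15.0% an unadjusted p under 0.05, and 1.86% were called. The groups did not overlap for 21.3% of these genes. DESeq2 called 359 genes higher and 492 lower, and limma-voom 83 and 187. These shares stand beside every marker list here. The sum of the 12 markers is mostly Col1a1 and Dspp, and its groups overlapped. The mean log2(CPM + 1) of the same 12 genes did not overlap, at 7.45 to 7.58 in controls and 7.70 to 7.71 in mutants. Marker lists of other cells in the dissected tissue had these sums. Epithelial markers (10 genes, led by enamel matrix transcripts) summed to 179190 to 278541 CPM in controls and 68423 to 113770 in mutants. Of their fold changes 8 of 10 were negative, and the 2 positive log2 values were those of Krt14 (0.03) and Epcam (0.31). The edgeR test called Amelx lower (6 of the list at an unadjusted p under 0.05, all lower), DESeq2 called 4 lower and limma-voom 2. Endothelial markers (10 genes) summed to 319 to 367 and 385 to 407 CPM, with 0 called. Schwann cell markers (10 genes) summed to 54.8 to 57.7 and 65.0 to 69.4 CPM, with 9 fold changes positive, 0 called by edgeR (5 at an unadjusted p under 0.05), 2 called higher by DESeq2 and 0 by limma-voom. Mbp, a myelin gene of that list, had the opposite sign, at 9.75 CPM in controls and 6.97 CPM in mutants without overlap (log2 fold change -0.48, adjusted p = 0.128). Markers of macrophages and leukocytes (10 genes) summed to 209 to 273 and 293 to 378 CPM, with all 8 tested fold changes positive and Cd68 called higher (adjusted p = 0.0498). DESeq2 called 2 of this list higher and limma-voom 0. Cd79a and Cd3e were too low to be tested. Erythroid markers (9 of 10 genes listed) summed to 189 to 274 and 290 to 702 CPM, with all 5 tested fold changes positive. Of these, 0 were called by edgeR (3 at an unadjusted p under 0.05), 2 were called higher by DESeq2 and 0 by limma-voom. The sums of the pericyte and smooth muscle, neuron, osteoclast and skeletal muscle lists overlapped between groups. Myh11, a smooth muscle myosin, was still called higher (10.4 against 19.8 CPM, adjusted p = 0.0499). The neuron list had 5 genes tested, with 3 fold changes positive and 0 called by edgeR (2 at an unadjusted p under 0.05). DESeq2 called 1 of this list lower and limma-voom 0. Uchl1 was lower, at 10.6 against 4.93 CPM without overlap (log2 fold change -1.11, adjusted p = 0.164). Tubb3 had the opposite sign, with overlap (0.22, adjusted p = 0.287). Elavl3, Prph, Nefl and Nefm were too low to be tested. In the table, no marker was at 0 in every library. In bulk tissue, fewer cells of a type and less RNA per cell cannot be told apart.

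**Figure D1:**
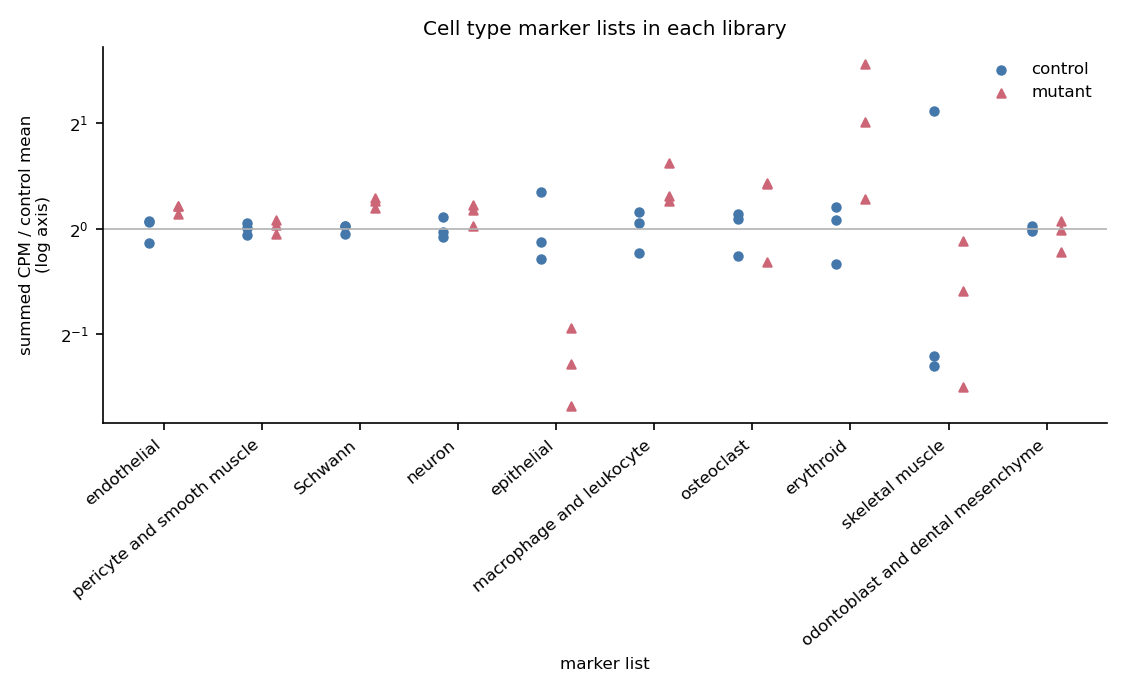
Summed CPM of each cell type marker list divided by the mean of the 3 controls (vertical log axis) for every library, with controls as circles and mutants as triangles. The epithelial list lies lower in all 3 mutant libraries than in any control, and the endothelial, Schwann, macrophage and erythroid lists lie higher.

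All 31 members passed the filter on low counts and were tested. In the mutants 2 members were higher (Sema6a and Nrp2), 2 were lower (Plxna4 and Plxnb1) and 27 did not pass at an adjusted p under 0.05. That is 12.9% of the members called, beside 1.86% of the 17305 genes tested, of which 0.659% were higher and 1.20% lower. Libraries of the groups did not overlap for 12 members (38.7%), 6 in each direction, beside 21.3% of all genes (10.6% higher and 10.8% lower). An unadjusted p under 0.05 was reached by 9 members (29.0%), 5 higher and 4 lower, beside 15.0% of all genes (7.13% higher and 7.83% lower). The members were better measured than most genes, with a median level of 41.1 CPM against 14.9 over all genes tested, and this was not matched in the shares given. The median log2 fold change of the members was -0.02, with 15 positive (48.4%) and 16 negative values, and that of all genes was 0.01, with 52.0% positive. Scaled by library totals in place of TMM, all genes had a median of 0.21, and the calls went from 114 higher and 208 lower to 411 and 109. The 4 called members kept their direction under every scaling tried, while 10 uncalled members changed sign under library totals.

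**Figure D2:**
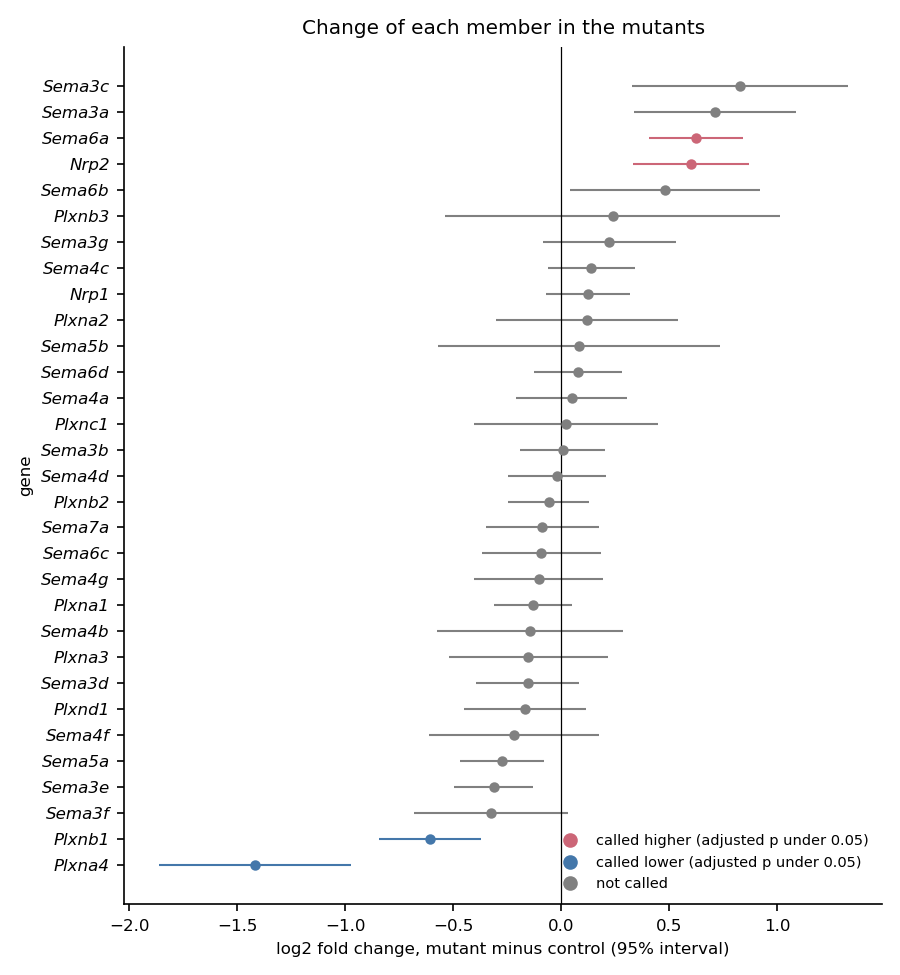
Log2 fold change (mutant minus control, horizontal axis) of each of the 31 members with its unadjusted 95% interval. Plxna4 at -1.42 lies far to the left of the other members, and the 4 called members are coloured.

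The abundance of the members, given as CPM per kilobase of annotated exon, ran from 0.106 for Plxnb3 to 92.1 for Plxnd1 in controls. Plxnd1, the vascular plexin that binds Sema3e directly, was the most abundant (92.1 ± 8.61, SD, n = 3) and made up 50.0% of the summed plexin level. Sema5a, a transmembrane semaphorin with thrombospondin repeats, led the ligands at 41.1 ± 2.68 CPM per kilobase and made up 28.6% of the semaphorin level. They were followed by the receptors Plxnb2 (32.4 ± 1.61) and Plxna1 (26.1 ± 0.719) and the lipid-anchored ligand Sema7a (22.8 ± 0.795). Plxnb1 (14.6 ± 0.956) and Sema4b (14.4 ± 2.72) came next and did not differ beyond their spread. Nrp2 (5.54 ± 0.426 CPM per kilobase) lay somewhat above Nrp1 (4.55 ± 0.218) in controls, at 5.22 to 6.02 against 4.39 to 4.80. Sema3a (0.793 ± 0.0704) and Sema3c (0.683 ± 0.124) were among the 5 lowest members, with Sema4f, Sema5b (0.140 ± 0.0109) and Plxnb3 (0.106 ± 0.0196) below them. The order of the 5 most abundant members was the same in mutants, while Plxna4 moved from rank 8 to rank 19 and Nrp2 from rank 16 to rank 9.

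**Figure D3:**
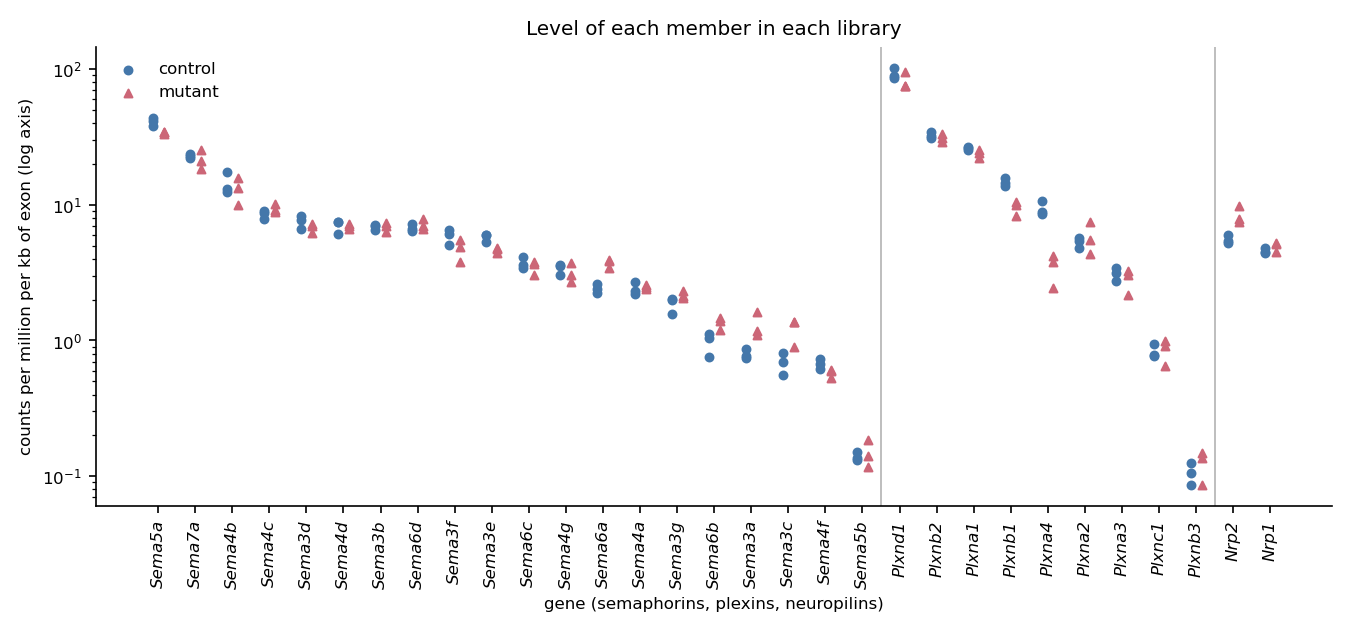
Level of each member in each library as CPM per kilobase of exon (vertical log axis), grouped into semaphorins, plexins and neuropilins and ordered by the control mean. Circles are controls and triangles mutants; Plxna4 and Plxnb1 show mutants below controls, and Nrp2 and Sema6a show mutants above them.

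Among the receptors, Plxna4 fell most. It is a class A plexin that pairs with neuropilins to receive Sema3a and binds Sema6a and Sema6b directly, and it is known for repelling axons of the peripheral and central nervous system. Its level was 121, 124 and 149 CPM in control replicates 2, 3 and 5 and 34.5, 59.3 and 53.8 CPM in mutant replicates 3, 4 and 5. Every mutant library lay below every control, with mutant replicate 3 the lowest. The mean dropped from 131 ± 15.5 to 49.2 ± 13.1 CPM (SD, n = 3), a 2.67-fold decrease (log2 fold change -1.42, SE 0.19, adjusted p = 0.0227). The gene lies on chromosome 6 of mm10 at chr6:32144268-32588192 on the minus strand. Leaving out a control took the call away (adjusted p = 0.0626 for replicate 2, 0.0761 for 3 and 0.0782 for 5), as did leaving out mutant replicate 5 (0.0533), with log2 fold changes of -1.57 to -1.21 over the 6 fits that each left out 1 library. The epithelial marker sum, which is mostly enamel matrix transcripts, was also lower in all 3 mutant libraries, and its part in this result was not tested.

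Plxnb1 was the other receptor that fell. It is the class B plexin through which Sema4d acts, known in bone for restraining osteoblasts, and it signals to RhoA through the exchange factors Arhgef11 and Arhgef12. Plxnb1 stood at 132, 138 and 150 CPM in control replicates 2, 3 and 5 and at 95, 101 and 79.6 CPM in mutant replicates 3, 4 and 5. The groups did not overlap, and replicate 5 was the lowest mutant. Its mean dropped from 140 ± 9.17 to 91.8 ± 10.97 CPM (SD, n = 3), a 1.52-fold decrease (log2 fold change -0.61, SE 0.10, adjusted p = 0.0349). It lies at chr9:109095389-109119917 on the plus strand. The call went whichever library was left out. The adjusted p was then 0.0876 (control replicate 2), 0.130 (control 3), 0.116 (control 5), 0.0565 (mutant 3), 0.0760 (mutant 4) or 0.0698 (mutant 5). The part of the lower epithelial sum was not tested for Plxnb1 either.

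The other plexins did not pass the test. Plxna1, the most abundant class A member and a receptor of Sema3a and Sema6d, stood at 237, 242 and 229 CPM in control replicates 2, 3 and 5. It stood at 199, 228 and 219 CPM in mutant replicates 3, 4 and 5 (log2 fold change -0.13, 95% interval -0.31 to 0.05, adjusted p = 0.492). The lowest control (229 CPM) was barely above the highest mutant (228 CPM). Plxnd1 stood at 652, 623 and 743 CPM in controls and 550, 548 and 697 CPM in mutants, in the same order of replicates (log2 fold change -0.17, 95% interval -0.45 to 0.12, adjusted p = 0.593). Its groups overlapped through mutant replicate 5. Plxna2, a receptor of Sema6a, spread widely in mutants, at 73.9, 94.1 and 128 CPM, around control values of 82.5, 97.5 and 92.4 CPM (adjusted p = 0.820). Plxnb2, a receptor of Sema4c and Sema4g, gave the narrow interval of -0.24 to 0.13 around a log2 fold change of -0.06. Plxna3, which acts with Nrp2 to receive Sema3f, had a log2 fold change of -0.15 (adjusted p = 0.725), and Plxnc1, the receptor of Sema7a, 0.02 (adjusted p = 0.971). Plxnb3 was near the limit of measurement at 12 to 23 counts per library (95% interval -0.54 to 1.01). Within each library, the ratio of Plxna4 to Plxna1 per kilobase, which does not depend on library scaling, was 0.327 to 0.418 in controls and 0.111 to 0.167 in mutants. The ratio of Plxnb1 to Plxnb2 was 0.422 to 0.485 in controls and 0.285 to 0.337 in mutants. These pairs were chosen after their values were seen.

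Of the co-receptors, Nrp2 rose and Nrp1 did not pass, and the difference between them was not tested. Nrp2, the co-receptor of Sema3f and Sema3g and of VEGF-C in lymphatic vessels, stood at 71.3, 63.6 and 61.8 CPM in control replicates 2, 3 and 5. In mutant replicates 3, 4 and 5 it stood at 88.8, 117 and 93.3 CPM, so all mutants were above all controls and replicate 4 was the highest. Its mean rose from 65.6 ± 5.04 to 99.6 ± 14.99 CPM (SD, n = 3), or 1.52-fold (log2 fold change 0.60, SE 0.12, adjusted p = 0.0496). Nrp2 lies at chr1:62703285-62818695 on the plus strand. This call sat at the threshold and was lost with RLE factors (adjusted p = 0.0509), without a filter (0.05002), with limma-voom (0.0540) and in 5 of the 6 fits that left out 1 library. Leaving out control replicates 2, 3 and 5 gave adjusted p = 0.0982, 0.171 and 0.154, and leaving out mutant replicates 3, 4 and 5 gave 0.0457, 0.109 and 0.0934. Nrp1, the co-receptor of Sema3a and of VEGF-A, stood at 43.0, 43.6 and 47.0 CPM in controls and 44.1, 50.2 and 51.1 CPM in mutants. Its groups overlapped, and its log2 fold change of 0.12 had a 95% interval of -0.07 to 0.32 (adjusted p = 0.564). The ratio of Nrp2 to Nrp1 per kilobase was 1.22 ± 0.142 in controls and 1.70 ± 0.209 in mutants (SD, n = 3), with ranges of 1.09 to 1.37 and 1.51 to 1.92. This pair too was chosen after its values were seen, and the ratio reuses the Nrp2 values of the call, so it is no separate support. Endothelial markers were higher in mutants too (9 of 10 with positive fold changes, 0 called by edgeR, 3 at an unadjusted p under 0.05, and 0 called by DESeq2 or limma-voom). Over all genes, 52.0% had positive fold changes and 15.0% an unadjusted p under 0.05. The Schwann cell, macrophage and leukocyte, and erythroid marker sums were also higher in every mutant library than in any control. The part of these lists in the Nrp2 result was not tested. Kdr, the VEGF receptor that works with Nrp1, stood at 56.0 to 65.4 CPM in controls and 58.7 to 68.9 CPM in mutants.

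The sequences before the start sites of Nrp2 and Plxnb1 are shown because these genes were called in opposite directions and have a RefSeq start in the promoter table. Each is the stretch of 250 bases before the RefSeq start on the plus strand of GRCm38.p6, chr1:62703067-62703316 for Nrp2 and chr9:109095186-109095435 for Plxnb1, and its last 32 and 47 bases lie inside the gene as bounded by the GENCODE coordinates above, whose starts differ from RefSeq. Capitals mark GC boxes (GGGCGG or its reverse complement CCGCCC).
Nrp2: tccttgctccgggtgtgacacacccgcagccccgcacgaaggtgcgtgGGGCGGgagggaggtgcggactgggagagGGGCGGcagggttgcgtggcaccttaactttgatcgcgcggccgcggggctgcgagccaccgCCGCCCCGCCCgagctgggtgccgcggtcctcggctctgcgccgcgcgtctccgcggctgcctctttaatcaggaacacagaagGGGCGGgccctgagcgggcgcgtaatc
Plxnb1: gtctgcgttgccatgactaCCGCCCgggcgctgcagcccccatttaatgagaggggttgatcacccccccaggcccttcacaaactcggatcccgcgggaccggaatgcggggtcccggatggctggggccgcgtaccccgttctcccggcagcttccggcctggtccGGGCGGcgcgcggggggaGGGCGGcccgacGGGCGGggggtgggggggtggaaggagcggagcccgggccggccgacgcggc
Both were rich in G and C (72.4% for Nrp2 and 75.2% for Plxnb1, against a median of 52.4% over all promoters in the table) and held 5 and 4 GC boxes, of which 2 in Nrp2 overlap by a base. A GC box on either strand was found in 32.7% of the 32851 windows of the same length and in 27 of the 37 windows of members, which belong to 21 of 26 member genes with an entry. The Gli motif GACCACCCA or its reverse complement TGGGTGGTC was in 0.225% of all windows and in 0 of the 37. The TATA motif TATAAA or TTTATA was in 12.4% and in 0 of the 37. Nrp2, called higher, and Plxnb1, called lower, both held GC boxes, and a missing motif says only that these letters are not in the window.

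Among the ligands, Sema6a was the member that rose. It is a transmembrane semaphorin that binds Plxna2 and Plxna4 and is known for guiding axons and migrating neurons. Its level was 23.0, 20.9 and 19.8 CPM in control replicates 2, 3 and 5 and 29.9, 33.8 and 34.5 CPM in mutant replicates 3, 4 and 5. The lowest mutant (29.9 CPM) lay above the highest control (23.0 CPM). The mean rose from 21.2 ± 1.65 to 32.7 ± 2.45 CPM (SD, n = 3), or 1.54-fold (log2 fold change 0.62, SE 0.09, adjusted p = 0.0264). The gene lies on chromosome 18. Sema6a was still called with mutant replicate 3 left out (adjusted p = 0.0315), but not with control replicate 2 (0.0668), 3 (0.119) or 5 (0.0902) or mutant replicate 4 (0.101) or 5 (0.0772) left out. The Schwann cell, endothelial and leukocyte marker sums given above were higher in the same libraries, and their part was not tested. The related Sema6b, another ligand of Plxna4, stood at 4.43, 4.12 and 2.99 CPM in controls and 5.84, 4.77 and 5.53 CPM in mutants. Its groups did not overlap but it did not pass (log2 fold change 0.48, SE 0.19, adjusted p = 0.284). Sema6c (log2 fold change -0.09, adjusted p = 0.777) and Sema6d, a ligand of Plxna1 (0.08, adjusted p = 0.751), did not pass either.

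**Figure D4:**
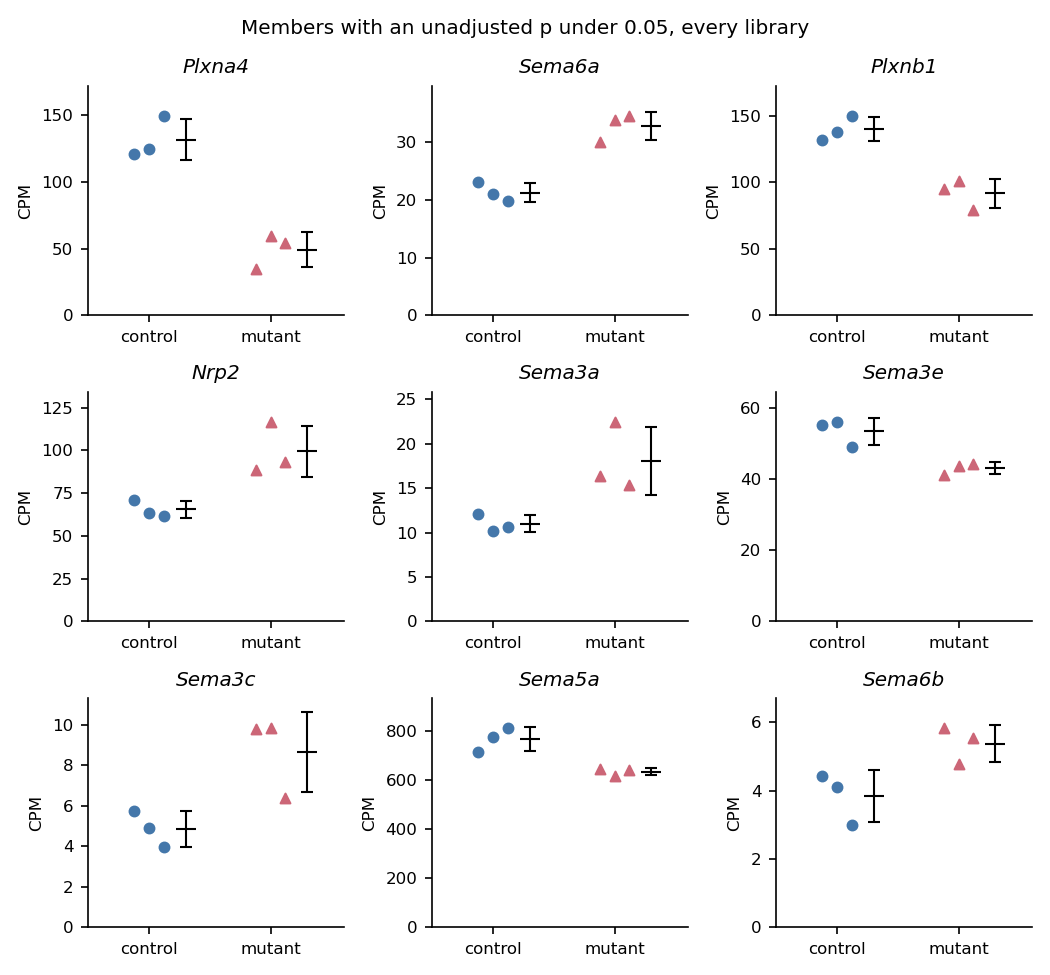
CPM in every library (linear vertical axis from 0) for the 9 members with an unadjusted p under 0.05, with the mean and SD of each group beside the points (n = 3). Circles are controls and triangles mutants; the groups do not overlap in any of the 9 panels, and the first 4 panels are the called members.

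No secreted class 3 semaphorin was called by edgeR. Of 7 tested, 3 had an unadjusted p under 0.05 (beside 15.0% of all genes), DESeq2 called 2, and limma-voom called 0. Both of the largest differences, those of Sema3c and Sema3a, were positive. Sema3a, the repellent for sensory nerve fibres, stood at 12.1, 10.2 and 10.6 CPM in control replicates 2, 3 and 5 and at 16.3, 22.5 and 15.3 CPM in mutant replicates 3, 4 and 5. All its mutant libraries lay above all controls, with replicate 4 the highest (log2 fold change 0.71, SE 0.16, adjusted p = 0.0815). It passed with scaling to library totals (adjusted p = 0.0378) and in DESeq2 (0.00604). Sema3c, a ligand known from outflow tract and vessel development, stood at 5.74, 4.92 and 3.97 CPM in controls and 9.78, 9.85 and 6.37 CPM in mutants. Its groups did not overlap, mutant replicate 5 was close to the controls, and it did not pass (log2 fold change 0.83, SE 0.22, adjusted p = 0.112), while DESeq2 gave 0.0227.

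Sema3e and Sema3f had smaller differences, of negative sign. Sema3e, which binds Plxnd1 without a neuropilin and repels vessels, stood at 55.2, 56.0 and 49.0 CPM in controls and 41.2, 43.6 and 44.2 CPM in mutants. Its groups did not overlap (log2 fold change -0.31, 95% interval -0.50 to -0.13, adjusted p = 0.107). Sema3f, which signals through Nrp2, stood at 26.3, 31.7 and 34.1 CPM in controls and 28.6, 25.2 and 19.54 CPM in mutants, with overlap (log2 fold change -0.33, adjusted p = 0.380). Sema3g, a vascular ligand of Nrp2, stood at 9.05, 9.13 and 7.13 CPM in controls and 10.5, 9.72 and 9.35 CPM in mutants. Its groups lay close together without overlap (log2 fold change 0.22, adjusted p = 0.498). Sema3d (-0.16, adjusted p = 0.545) and Sema3b, a ligand of neuropilins (0.01, 95% interval -0.19 to 0.20), did not pass. Sema3a, Sema3c, Sema3d and Sema3e all lie on chromosome 5, between positions 12383385 and 17730268. Sema3b and Sema3f lie near each other on chromosome 9, starting at positions 107597674 and 107681500. Genes of the chromosome 5 group differed in the sign of their values.

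The membrane-bound ligands of classes 4, 5 and 7 did not pass. Sema5a, the most abundant semaphorin, stood at 714, 778 and 813 CPM in control replicates 2, 3 and 5 and at 645, 618 and 642 CPM in mutant replicates 3, 4 and 5. Its mutant libraries were close together and below all controls (log2 fold change -0.28, SE 0.08, adjusted p = 0.165, or 0.0323 in DESeq2). Sema5b was measured at about 1 CPM (log2 fold change 0.08, 95% interval -0.57 to 0.73). None of the 6 class 4 genes was called by edgeR, DESeq2 or limma-voom, and 0 had an unadjusted p under 0.05. Sema4d, the ligand of Plxnb1, stood at 57.2, 57.7 and 46.5 CPM in controls and 55.1, 50.7 and 53.7 CPM in mutants. Its interval of -0.24 to 0.21 around a log2 fold change of -0.02 lies beside the -0.61 of its receptor, and the difference between them was not tested. The other class 4 genes had log2 fold changes from -0.22 for Sema4f to 0.14 for Sema4c, a ligand of Plxnb2. Sema4a was at 0.05, Sema4g at -0.10 and Sema4b at -0.15. Sema7a, which binds Plxnc1 and integrins, stood at 77.6, 75.7 and 72.4 CPM in controls and 82.9, 60.6 and 69.0 CPM in mutants (adjusted p = 0.782). Of the 27 uncalled members, 20 had 95% intervals within a 1.5-fold change in either direction and 24 within a 2-fold change. The intervals of Sema3a, Sema3c and Plxnb3 reached beyond a 2-fold change.

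Genes that act with or downstream of these receptors were read from a list of 44, which held kinases, GTPase regulators, collapsin response mediators and co-receptors. None was called by edgeR, while DESeq2 called 2 lower and limma-voom 0. An unadjusted p under 0.05 was reached by 6 of the 44, beside 15.0% of all genes. The median log2 fold change was 0.04 against 0.01 over all genes. Arhgef11, the RhoA exchange factor bound by class B plexins, stood at 144, 130 and 152 CPM in controls and 100, 113 and 95.5 CPM in mutants. Its groups did not overlap, and it just missed the threshold (log2 fold change -0.46, SE 0.09, adjusted p = 0.0538). Arhgef11 passed in DESeq2 (0.00139), with a filter of 1 CPM in 3 libraries (0.0478) and on the authors' normalized values (0.0496). It did not pass in limma-voom, with a replicate block or in any fit that left out 1 library. Gsk3b, a kinase that acts on collapsin response mediators, had a log2 fold change of -0.44 (adjusted p = 0.0707). Tyrobp, an adaptor of Trem2 in myeloid cells, had 0.52 (adjusted p = 0.142).

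Of the other guidance families, the netrin genes and their receptors held 2 fallers and 0 risers among 12 tested, beside 1.86% of all genes called. An unadjusted p under 0.05 was reached by 5 of the 12, 3 higher and 2 lower, beside 15.0% of all genes. Positive fold changes were held by 7 of the 12. Unc5a, a repulsive netrin receptor, stood at 2.77, 2.53 and 3.10 CPM in controls and 1.08, 1.13 and 1.05 CPM in mutants, with an adjusted p of 0.0290 (log2 fold change -1.36, SE 0.21). Ntng2, a membrane-anchored netrin G, stood at 37.9, 39.3 and 35.1 CPM in controls and 26.4, 22.6 and 19.2 CPM in mutants, with an adjusted p of 0.0347 (log2 fold change -0.72, SE 0.12). Neither pair of groups overlapped. Both calls were lost in nearly every fit that left out 1 library. For Unc5a the adjusted p became 0.0876, 0.103 and 0.0967 on leaving out control replicates 2, 3 and 5, and 0.0575, 0.0990 and 0.0851 on leaving out mutant replicates 3, 4 and 5. For Ntng2 the same fits gave 0.105, 0.144 and 0.0972, and 0.0247, 0.116 and 0.0671, and library totals gave 0.0658. The edgeR test called 0 of the 6 Slit and Robo genes tested (1 at an unadjusted p under 0.05) and 0 of the 18 ephrins and Eph receptors tested (5 at an unadjusted p under 0.05), as did DESeq2 and limma-voom. The medians of the 3 families were 0.09 (netrins), 0.10 (Slit and Robo) and 0.09 (ephrins), against 0.01 over all genes.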

How the data were processed

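The authors deposited expected counts (estimates, of which 53.8% were whole within 0.001), and STAR 2.6.1d, Partek and mm10 are named in the submitters' processing notes without role or order. Neither strandedness nor annotation is given in the sources used here. Every gene matched GENCODE M21 in name, chromosome and start, which supplied gene ends and exon lengths. The authors also deposited a normalized signal, equal to the count plus 1 times a factor per library, for 18665 genes, which was used for 1 alternative.

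Counts were rounded, filtered with filterByExpr by group (17305 of 22287 genes kept) and scaled by TMM. All genes were tested with the edgeR quasi-likelihood test (edgeR 4.0.16, R 4.3.3) with Benjamini-Hochberg adjustment, and called at an adjusted p under 0.05. SEs were taken as |log2 fold change| divided by the root of F, and intervals are unadjusted. Level per kilobase is CPM over the union of annotated exons. Scripts were tested on simulated data. Groups came from the genotype labels and replicate numbers from the titles. Chi-square over its degrees of freedom was 19.3 to 34.8 between libraries of a group, so none was a copy.

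The members and lists were chosen with earlier results of these data known. Every member is accounted for. Values per library are given for members at an unadjusted p under 0.05 or among the 12 smallest p and for Nrp1, Nrp2, Sema3a, Plxna1 and Plxnd1; other genes with library values were chosen after their values were seen, apart from called genes and those of smallest p in the lists. Alternatives were other scalings and filters, DESeq2 1.42.0, limma-voom (limma 3.58.1), limma on the normalized values after log2 with a pseudocount of 1, a replicate block, each library left out and a threshold of 0.1. Reads of genes overlapping on opposite strands may not be separated. Plxnb1 shares 257 exon bases with Gm7628 (26.1 to 46.7 counts per library), Plxna1 shares 970 with Gm26811, Sema4c 334 with D430040D24Rik and Plxna4 110 with Plxna4os3. Promoter sequences are from RefSeq (GRCm38.p6), which held 26 of the 31 members.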

Additional observations from a re-analysis of the deposited data

How the results depend on the processing

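The 4 called members kept their direction in all 16 alternatives. Of the 2 members called higher, 1 was called with RLE factors, without a filter and with limma-voom, and 0 to 2 without 1 library, while DESeq2 called 4. Of the 2 called lower, 0 to 1 were called without 1 library. Over all genes, 114 higher and 208 lower became 411 and 109 with library totals, 359 and 492 in DESeq2, 272 and 400 at a threshold of 0.1, and 1 to 105 and 10 to 138 without 1 library, where fewer samples are fitted. The 2 fallers of the pathway lists became 1 with library totals, 4 in DESeq2, 4 at a threshold of 0.1 and 0 to 1 without 1 library. With library totals, 10 uncalled members turned positive: Plxna1 (0.0705), Plxna3 (0.0505), Plxnb2 (0.14), Plxnd1 (0.0441), Sema3d (0.0480), Sema4b (0.0484), Sema4d (0.18), Sema4g (0.10), Sema6c (0.11) and Sema7a (0.12), as all genes shifted by 0.20. Plxnc1 was at -0.0018 with limma-voom. Without 1 library, log2 fold changes that crossed 0 ranged from -0.11 to 0.29 for Plxna2, -0.27 to 0.0043 for Plxna3, -0.10 to 0.18 for Plxnc1, -0.0438 to 0.0656 for Sema3b, -0.0032 to 0.14 for Sema4a, -0.31 to 0.0249 for Sema4b, -0.10 to 0.0391 for Sema4d, -0.12 to 0.22 for Sema5b and -0.22 to 0.0137 for Sema7a. Other causes were not tested. The filter of 1 CPM in 3 libraries removed Plxnb3.

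Numbers 3 and 5 are used in both groups, but the labels do not say that they mark shared animals or batches. The submitters' protocol speaks of 3 pairs of samples without saying how the libraries pair, and the main test treated them as unpaired. Libraries with the same number had deviations that correlated at 0.20 for replicate 3 and -0.15 for replicate 5. Control replicate 2 and mutant replicate 4 share their number with no other library. A replicate block therefore compares the groups within numbers 3 and 5 alone, with few residual degrees of freedom. With this block, 0 members were called higher and 1 lower (Plxna4, adjusted p = 0.0124), 19 and 71 of all genes were called, and 0 pathway genes were lower. Sema4d (0.0689) and Sema7a (0.0305) turned positive under the block.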
